A study of Arabidopsis with 12 samples.

Results

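The comparison described here sets *aph-1* seedlings treated with abscisic acid (ABA) against wild-type seedlings given the same treatment. Of the 33559 genes in the deposited expression table, 19408 had an FPKM of at least 1 in at least 1 of the ABA-treated groups, and these are the genes described. FPKM measures how much of a transcript a library holds, corrected for the length of the gene and the size of the library. The difference was expressed as log2((*aph-1* + 0.1)/(wild type + 0.1)), so that positive values mean a higher level in the mutant. The series holds 12 RNA-seq libraries from whole Arabidopsis seedlings at 14 days, grown on 1/2 MS medium, with 3 libraries in each of 4 groups. The wild type was Col-0, and *aph-1* was a single T-DNA line (Salk_120974) with its insertion in the promoter region of *APH*. The treated groups received ABA at 50 micromole for 6 h, and the control groups received none. The table holds a single value per gene and group, so no spread between libraries could be computed, no test was possible and every difference given here lacks a replicate check.

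ABA is the plant hormone of drought, cold and salt stress and of seed dormancy. It is perceived by PYR/PYL receptors, which on binding ABA inhibit the clade A protein phosphatases 2C and so release SnRK2 kinases, and these kinases act on transcription factors that switch on protective genes such as dehydrins and late embryogenesis abundant (LEA) proteins. *APH* (AT3G44620) encodes a low molecular weight protein tyrosine phosphatase. Its transcript was at 99.0 FPKM in the ABA-treated wild type and 86.9 FPKM in ABA-treated *aph-1*. The level of this transcript therefore does not separate the genotypes, and as a gene-level value it does not show which parts of the transcript were present.

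The treated groups had similar totals over all genes, 1119200 FPKM (wild type) and 1113700 FPKM (*aph-1*), and the 100 most abundant genes took 23.5% and 22.2% of them. An exact 0 in this table needs care. *NRPB12*, which encodes a subunit of the RNA polymerases that every cell uses, was listed at 0 in the treated wild type, whereas treated *aph-1* had 19.2 FPKM and the untreated groups had 27.2 FPKM (wild type) and 9.36 FPKM (*aph-1*). Genes listed at 0 in 1 of the treated groups are therefore described by their values, with no fold. Transcripts of green tissue, such as *RBCS1A*, and of roots, such as *THAS1*, were both present in all groups, as whole seedlings would give. In such bulk samples fewer cells of a type and less RNA per cell cannot be told apart.

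With ABA, most genes differed little between the genotypes. The median log2 ratio over the 19408 genes was −0.01, the quartiles were −0.12 and 0.10, and the 5th and 95th percentiles were −0.32 and 0.33. A level at least 2-fold higher in *aph-1* was found for 85 genes (0.438%), and a level at least 2-fold lower for 59 genes (0.304%). At 1.5-fold the counts were 253 higher (1.30%) and 225 lower (1.16%). Of the 85 higher genes 20 were listed at 0 in the wild type, and of the 59 lower genes 14 were listed at 0 in *aph-1*, which left 65 and 45 genes with a value above 0 in both groups.

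Large ratios were found mostly among genes of low abundance. Of the 1478 genes whose larger value lay from 1 to 2 FPKM, 31 were 2-fold higher and 27 were 2-fold lower, and their 5th and 95th percentiles were −0.59 and 0.63. Among the 7975 genes from 10 to 50 FPKM the percentiles were −0.27 and 0.27, with 17 genes 2-fold higher and 10 lower. Among the 4140 genes of at least 50 FPKM, 5 were 2-fold higher and 1 was lower. Thus 61 of the 85 higher genes and 40 of the 59 lower genes stayed under 5 FPKM in both treated groups, where the spread of all genes was widest. Where at least 1 FPKM was required in both treated groups, 37 genes were 2-fold higher and 19 were 2-fold lower. The other genes past 2-fold passed the minimum only through the group where they were higher.

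**Figure D1:**
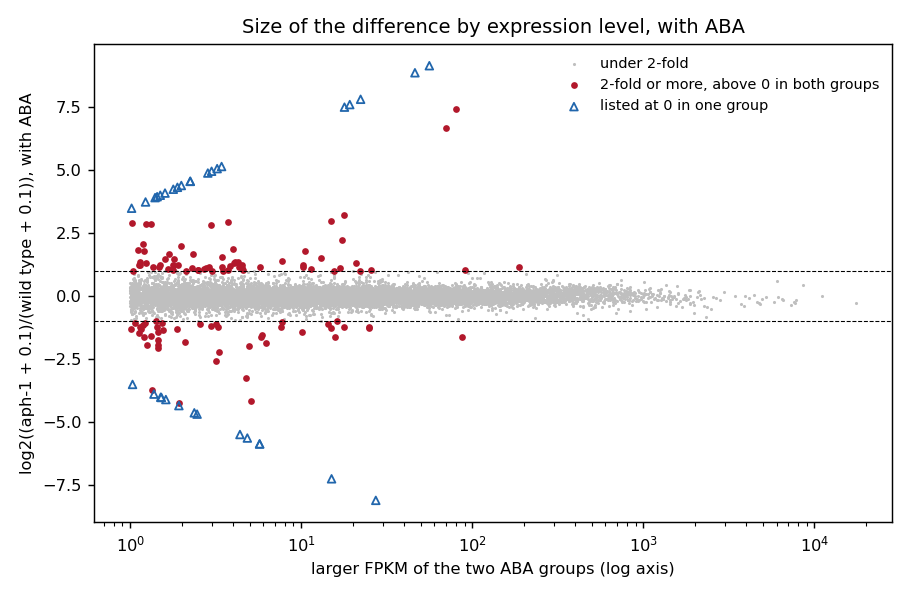
Each point is 1 of the 19408 genes, with the larger FPKM of the treated groups on a log axis and its log2 ratio, mutant over wild type, with ABA on the vertical axis. Red points are 2-fold or more apart with a value above 0 in both groups, blue triangles are listed at 0 in 1 group, and dashed lines mark 2-fold. The cloud narrows from 5th and 95th percentiles of −0.59 and 0.63 at 1 to 2 FPKM to −0.27 and 0.27 at 10 to 50 FPKM. At 50 FPKM and above the percentiles were −0.28 and 0.31.

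Among genes of at least 10 FPKM that were above 0 in both treated groups, the 3 with the largest ratios on the higher side also differed without ABA. AT2G01422, a gene with no description in the table, was at 0.373 FPKM in the treated wild type and 79.8 FPKM in treated *aph-1*, a 214-fold difference, and at 1.13 and 90.0 FPKM in the untreated groups. AT3G58550, a member of the lipid-transfer protein superfamily of small secreted proteins, was at 0.596 and 70.4 FPKM with ABA, 118-fold higher in the mutant, and at 1.62 and 47.0 FPKM without it. AT3G57780, with no description, was at 1.81 and 17.8 FPKM with ABA, 9.87-fold higher in the mutant, and 11.3-fold higher without it. In all 3 the genotypes stood apart by far more than the treatments did. AT3G44610, a protein kinase gene with the identifier next to that of *APH*, was 2.16-fold higher in *aph-1* in both conditions, at 5.30 and 11.4 FPKM with ABA. The histone H3 gene *HTR11* was at 1.63 FPKM in the treated wild type and 4.28 FPKM in treated *aph-1*, 2.63-fold higher, and was 2.18-fold higher without ABA. AT1G09640, encoding the gamma subunit of the translation elongation factor EF1B and chosen after its values were seen, was at 111 FPKM in the treated wild type and 206 FPKM in treated *aph-1*, and its log2 ratio was 0.89 in both conditions.

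Basic helix-loop-helix (bHLH) transcription factors had 5 of 91 measured members 2-fold higher in ABA-treated *aph-1*, against 0.438% of all measured genes, although the class median was −0.03. None was 2-fold lower, where the share over all genes was 0.304%. Of these 5, 4 are the subgroup Ib factors, which switch on iron uptake genes when iron is short. *BHLH100* was at 3.67 FPKM in the treated wild type and 17.4 FPKM in treated *aph-1*, a 4.74-fold difference, against 30.7 and 34.1 FPKM without ABA. *bHLH39* was at 2.92 and 7.72 FPKM with ABA and at 13.5 and 12.7 FPKM without. *BHLH101* was at 1.86 and 4.52 FPKM with ABA, and *bHLH38*, which has the identifier next to that of *bHLH39*, was at 12.3 and 25.5 FPKM. The treated wild type was the lowest of the 4 groups for each of these 4 genes. Treated *aph-1* lay between it and the untreated groups for 3 of them and was the highest group for *bHLH38*. Without ABA the log2 ratios of the 4 genes lay between −0.33 and 0.15. The remaining member, AT4G20970, was at 1.69 and 3.50 FPKM with ABA.

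Other genes of iron handling were taken from a list chosen after their values were seen. Apart from the 4 factors it holds 16 genes, of which 14 were measured. Of these, 9 had a ratio above 0. At 1.5-fold 4 were higher and 1 was lower, against 1.30% and 1.16% of all measured genes. AT1G47395 was at 61.5 FPKM in the treated wild type and 117 FPKM in treated *aph-1*, and its neighbour AT1G47400 at 20.7 and 36.8 FPKM. *OPT3*, a transporter that carries iron into the phloem, had a log2 ratio of 0.51 with ABA and 0.55 without. *FIT* (AT2G28160), the main regulator of root iron uptake, was at 1.71 and 2.16 FPKM, and the iron transporter gene *IRT1*, its target, stayed at 0.109 and 0.114 FPKM, under the minimum of 1 FPKM. The gene on the lower side was *NAS3*, which encodes an enzyme that makes the metal chelator nicotianamine. It was at 233 FPKM in the treated wild type and 129 FPKM in treated *aph-1*, and at 55.1 and 36.5 FPKM in the untreated groups.

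Cytochromes P450, the oxygenases of much of plant secondary metabolism, had 4 of 145 measured members 2-fold higher in *aph-1*, against 0.438% of all measured genes, with a class median of 0.01. None was 2-fold lower, against 0.304% of all measured genes. Of the 4 higher members, *CYP71A13* reached 1 FPKM only in treated *aph-1*, the group where it was higher. With a pseudocount of 1 its log2 ratio was 0.88, under 2-fold. *CYP705A5* belongs to the thalianol gene cluster, a row of neighbouring genes that make a root triterpene. It was at 8.36 FPKM in the treated wild type and 21.0 FPKM in treated *aph-1*, against 102 and 98.2 FPKM without ABA. *THAS1*, the oxidosqualene cyclase that makes thalianol, was at 2.53 and 5.77 FPKM with ABA and at 54.9 and 48.6 FPKM without. *CYP708A2* was at 7.15 and 12.8 FPKM with ABA, and AT5G47980, an acyltransferase with the identifier next to that of *CYP705A5*, at 0.611 and 1.48 FPKM. All 4 genes of the cluster were lower in both treated groups than in either untreated group, and higher in treated *aph-1* than in the treated wild type. The terpene synthase class, with 13 measured members, had a median of 0.15 and none past 2-fold, since the table describes *THAS1* only by its own name.

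The other 3 P450 genes act in indole metabolism. *PAD3*, the last enzyme of camalexin synthesis, the main phytoalexin of Arabidopsis, was at 4.61 FPKM in the treated wild type and 10.3 FPKM in treated *aph-1*. *CYP71A13*, an earlier enzyme of that path, was at 0.452 and 1.68 FPKM, and *CYP81F2*, which modifies indole glucosinolates, was 2.08-fold higher in treated *aph-1* from 1.45 FPKM in the treated wild type. Each lay between 1.05 and 1.40-fold higher in *aph-1* without ABA. *CYP79B2* and *CYP79B3*, which open both paths from tryptophan and were chosen after their values were seen, had log2 ratios of 0.52 and 0.56 with ABA and 0.37 and 0.22 without. *CYP71A12*, a near-identical copy of *CYP71A13* whose reads may be hard to assign, was at 4.80 and 7.33 FPKM with ABA and lower in *aph-1* without it, at 2.72 and 1.81 FPKM.

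**Figure D2:**
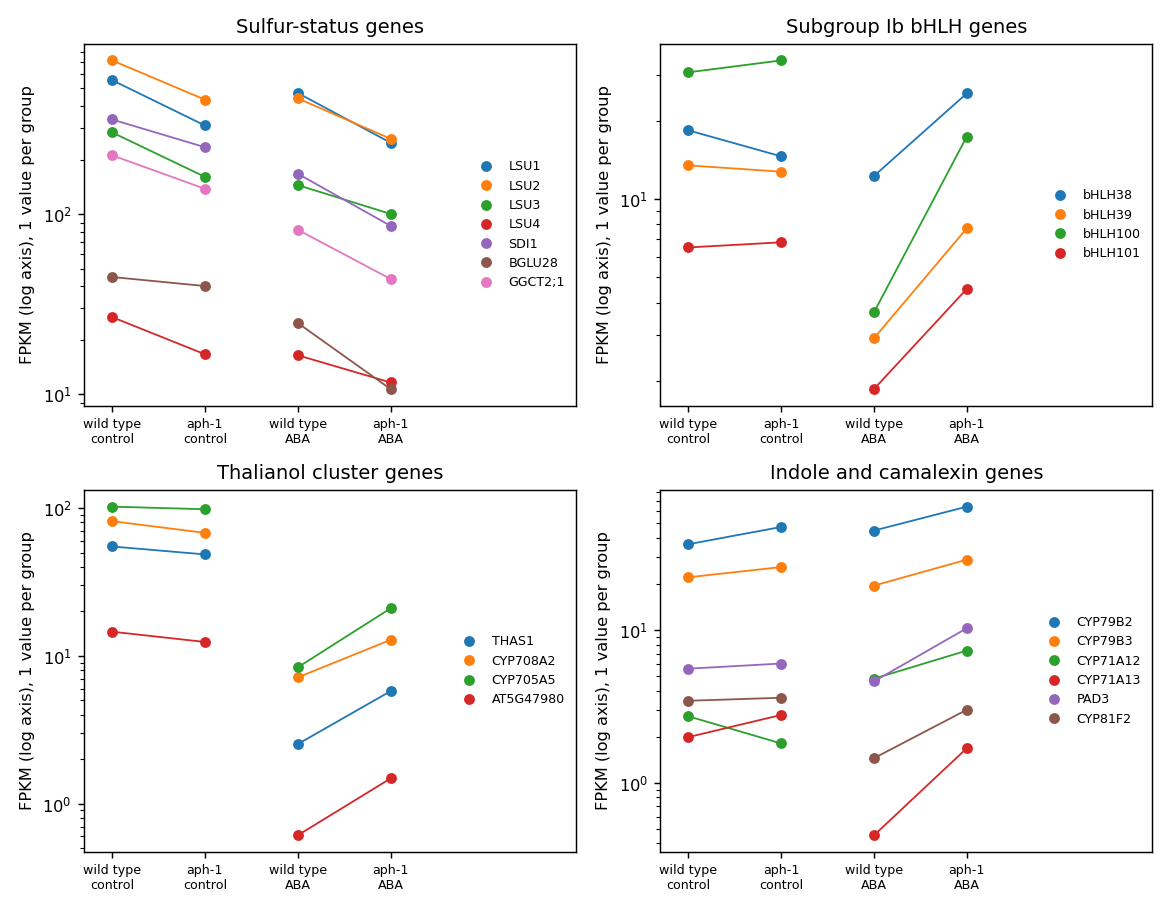
FPKM on a log axis, 1 value per group, for the sulfur-status genes, the subgroup Ib bHLH genes, the thalianol cluster and the indole and camalexin genes, with a line joining wild type to *aph-1* within each treatment. The sulfur genes slope down in both conditions, from 472 to 250 FPKM for *LSU1* with ABA, while the bHLH and thalianol genes slope up with ABA, from 3.67 to 17.4 FPKM for *BHLH100*.

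Some defence genes were higher in treated *aph-1*. The class of pathogenesis-related proteins, chitinases and glucanases had 2 of 50 measured members 2-fold higher, against 0.438% of all measured genes. None was 2-fold lower, against 0.304% of all measured genes, and the class median was 0.08. *BGL2*, the glucanase PR2 that marks salicylic acid responses, was at 2.19 FPKM in the treated wild type and 4.56 FPKM in treated *aph-1*. With a pseudocount of 1 its log2 ratio was 0.80, under 2-fold. The chitinase gene AT2G43620 was at 44.4 and 90.1 FPKM with ABA and at 49.6 and 71.6 FPKM without, higher in the mutant in both. *PCC1*, a small gene controlled by pathogens and the clock, was at 4.56 FPKM in the treated wild type and 2.86-fold higher in treated *aph-1*, and at 26.5 and 20.4 FPKM without. *ACD6*, an ankyrin protein of salicylic acid signalling, was at 2.02 and 4.49 FPKM, and *WRKY70*, a transcription factor of the same path, at 14.8 and 25.2 FPKM. Other genes of that path, in a list of 10 chosen after their values were seen, stayed close to the wild type. *PR1* was at 12.8 and 11.3 FPKM, *ICS1* (AT1G74710), which makes the salicylic acid precursor, at 3.65 and 4.18 FPKM, and *NPR1*, a salicylic acid receptor, at 13.4 and 13.9 FPKM.

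Glutathione S-transferases, which conjugate glutathione to reactive compounds, had 2 of 51 measured members 2-fold higher, against 0.438% of all measured genes, and a median of 0.03. These were the neighbouring genes *GSTU11*, at 1.56 and 4.12 FPKM, and *GSTU12*, at 0.727 and 1.66 FPKM, both low. *GSTU12* passed the minimum of 1 FPKM only in treated *aph-1*. The jasmonate and lipoxygenase class had 1 of 24 members 2-fold higher, beside the same 0.438%, namely *JRG21* at 1.90 and 4.32 FPKM. Its more abundant members *LOX2*, a lipoxygenase of jasmonate synthesis, and *VSP2*, a vegetative storage protein, were at 189 and 297 FPKM and at 190 and 275 FPKM. The median of this class was 0.10 with ABA and −0.25 without, against −0.01 and −0.05 over all measured genes. The calcium-binding, AP2/ERF and NAC classes, with 100, 68 and 64 measured genes, each had a single member 2-fold higher, beside the same 0.438%. None of their members was 2-fold lower, where the share over all genes was 0.304%. The higher members, *CML30*, *ERF14* and *NAC070*, reached only 1.03, 1.32 and 1.04 FPKM in treated *aph-1*. They passed the minimum of 1 FPKM only in that group.

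The lipid-transfer class is mostly the superfamily of bifunctional inhibitors, lipid-transfer proteins and 2S albumins. It had 3 of 67 measured members 2-fold higher and 1 lower, against 0.438% and 0.304% of all measured genes, with a median of −0.04. AT4G12490 was at 83.1 FPKM in the treated wild type and 186 FPKM in treated *aph-1*, and its neighbour AT4G12500 at 11.0 and 22.2 FPKM. *EARLI1* (AT4G12480), from the same row of genes, was at 166 and 267 FPKM with ABA and at 2573 and 2123 FPKM without. These genes are similar in sequence, so their reads may be split between them. The lower member was AT4G22490, at 86.6 FPKM in the treated wild type and 28.0 FPKM in treated *aph-1*, a 3.10-fold difference, and at 216 and 61.4 FPKM without ABA. It was the only gene of at least 50 FPKM that was 2-fold lower. *LTP4*, a lipid transfer protein gene that stood at 22.4 and 5.27 FPKM without ABA, was at 2485 and 1751 FPKM with it.

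The genes lower in treated *aph-1* included several that report sulfur status. The 4 genes annotated as response to low sulfur, a class added after the values were seen, were all lower in *aph-1* with and without ABA, with a median of −0.64 with ABA and −0.77 without. *LSU1* was at 472 FPKM in the treated wild type and 250 FPKM in treated *aph-1*, and at 556 and 312 FPKM without ABA. *LSU2* was at 441 and 263 FPKM with ABA and at 716 and 433 FPKM without. *SDI1* (AT5G48850), a repressor of glucosinolate synthesis under low sulfur, was at 168 and 86.3 FPKM with ABA. The thioglucosidase gene *BGLU28* was the only sulfur gene past 2-fold, at 24.9 and 10.7 FPKM, a 2.33-fold difference with ABA against 1.12-fold without. AT5G26220, a gamma-glutamyl cyclotransferase that breaks down glutathione, was at 82.1 and 43.7 FPKM. In the whole list of 16 sulfur genes, also chosen after their values were seen, 15 were measured, 14 were below 0 with ABA, 5 were 1.5-fold lower and none was 1.5-fold higher. Over all 19408 measured genes 10284 were below 0, 1.16% were 1.5-fold lower and 1.30% were 1.5-fold higher. All 15 measured genes of the list were below 0 without ABA, as were 10971 of all 19408 measured genes. The genes of sulfate reduction and uptake differed least. *APR1*, *APR2* and *APR3*, the key enzymes of sulfate reduction, had log2 ratios of −0.25, −0.11 and −0.17, and the sulfate transporter gene *SULTR1;2* one of −0.14.

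Genes of the chloroplast genome were lower in treated *aph-1* as a class, with the lowest median of the 47 classes. Of the 60 measured, 25 were 1.5-fold lower and 2 were 1.5-fold higher, against 1.16% and 1.30% of all measured genes. Both of the higher genes, ATCG01020 and ATCG00070, were listed at 0 in the treated wild type. Among the 58 genes with a value above 0 in both treated groups 55 had a ratio below 0, against 10284 of all 19408 measured genes. The median of the 58 genes was −0.51, against −0.01 for all genes. The 6 genes 2-fold lower were ATCG00905, ATCG01060, ATCG01070, ATCG00580, ATCG01090 and ATCG00660, which encode ribosomal proteins, subunits of the photosystems and subunits of the NADH dehydrogenase-like complex. ATCG00580, a small subunit of photosystem II, was at 17.8 FPKM in the treated wild type and 7.58 FPKM in treated *aph-1*. ATCG00790, the ribosomal protein L16 gene and one of the more abundant members, was at 46.5 and 32.7 FPKM. Without ABA the 58 genes had a median of −0.31, against −0.05 over all measured genes, with 48 below 0. The whole class took 0.0513% of all FPKM in the treated wild type and 0.0426% in treated *aph-1* and is thus a minor part of these libraries. The median larger value of the 58 genes was 6.77 FPKM. How fully each group's libraries captured chloroplast transcripts was not tested. The 14 measured genes of the mitochondrial genome had a median of −0.34 with ABA and −0.29 without, and 10 of them were below 0.

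**Figure D3:**
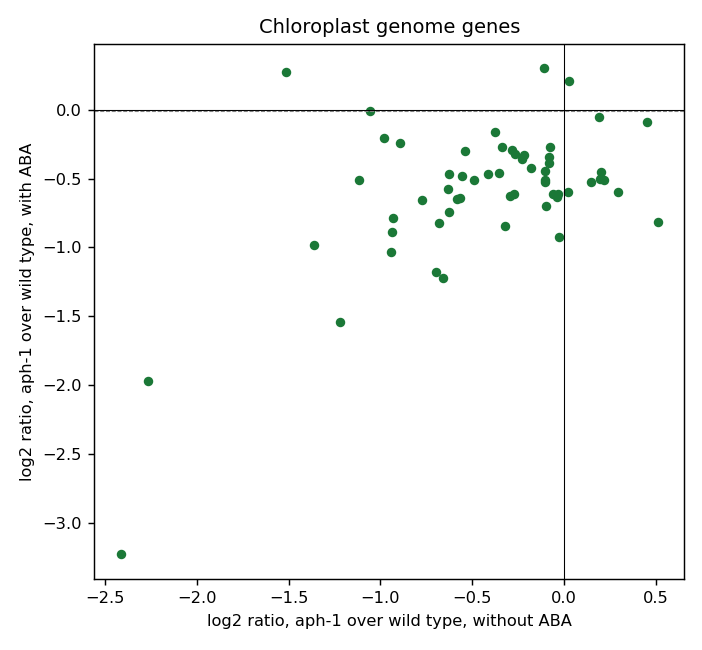
Each point is 1 of the 58 chloroplast genome genes above 0 in both treated groups, with its log2 ratio, mutant over wild type, without ABA on the horizontal axis and with ABA on the vertical axis. The solid lines mark 0 and the dashed line the median of all genes, −0.01, and 55 of the points lie below 0 on the vertical axis.

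Genes for the same organelle that are encoded in the nucleus stood on the other side of 0. Of 66 nuclear photosystem and light-harvesting genes 59 were above 0 with ABA, against 9124 of all 19408 measured genes. The median of the 66 genes was 0.19 with ABA and −0.08 without. Over all measured genes it was −0.01 with ABA and −0.05 without. With ABA 3 of them were 1.5-fold higher, against 1.30% of all measured genes. *CAB2* was at 175 FPKM in the treated wild type and 311 FPKM in treated *aph-1*, and *CAB3* at 481 and 744 FPKM. These chlorophyll-binding protein genes are near-identical copies, so the split between them is uncertain. *RBCS1A*, a small subunit of Rubisco that was picked with its values known, was at 3952 and 6025 FPKM. Nuclear genes for ribosomal proteins were placed similarly. Of these genes 288 of 307 were above 0 with ABA, beside the same 9124 of all 19408 genes, with a median of 0.19. At 1.5-fold only 2 were higher and 1 was lower, against 1.30% and 1.16% of all measured genes. The median of the 307 genes was −0.09 without ABA, beside the same −0.05 over all measured genes. The nuclear genes were separated from the organelle genes of these classes after the values were seen, and with the organelle genes the medians were 0.17 and 0.18.

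**Figure D4:**
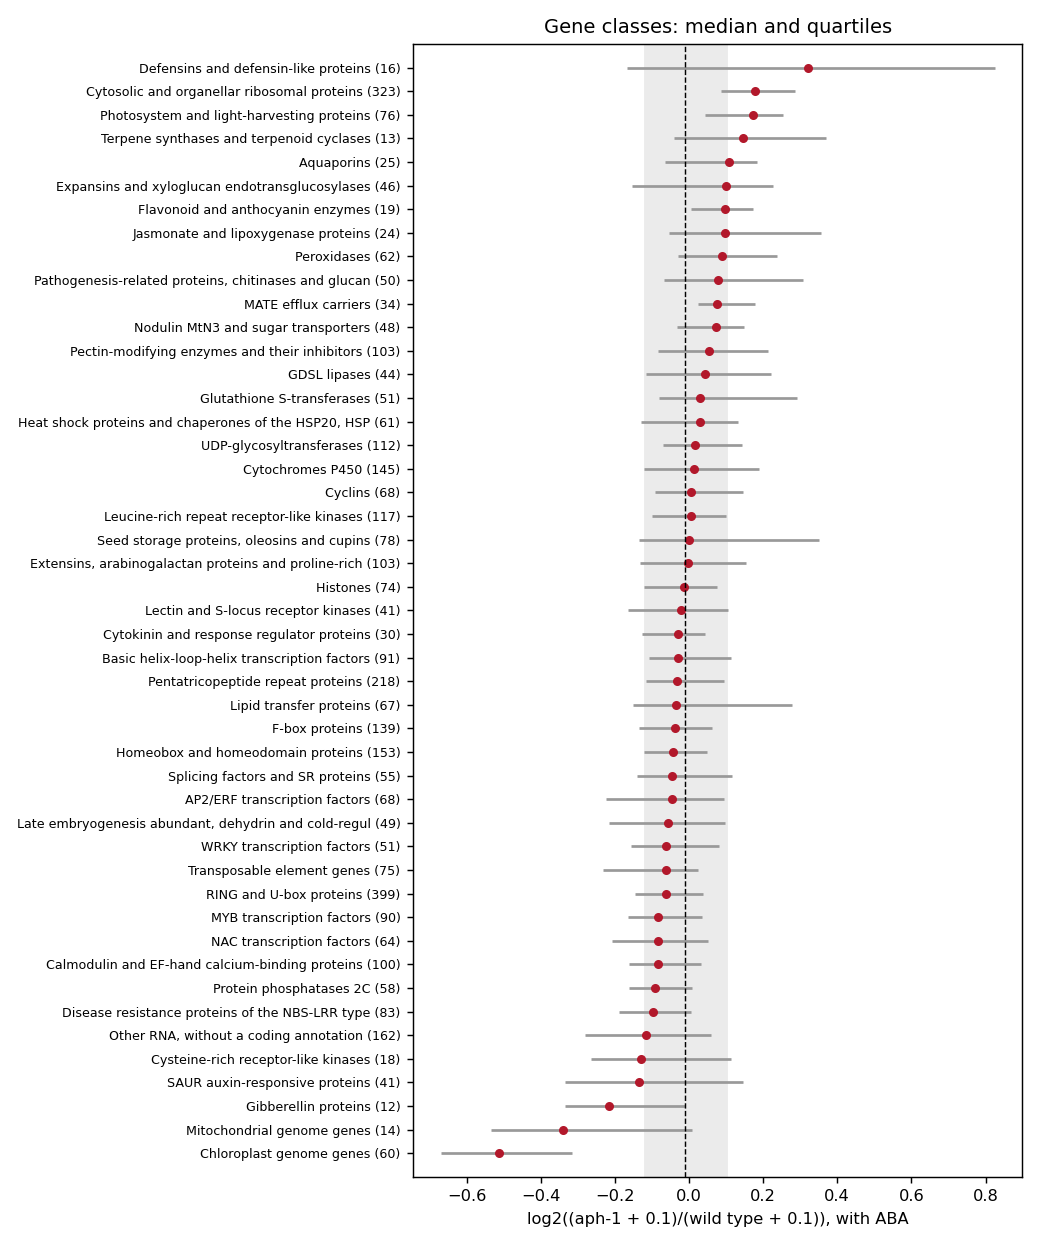
Median (point) and quartiles (bar) of log2 ratios, mutant over wild type, with ABA for each of the 47 gene classes, with the number of measured members in brackets. The grey band and dashed line give the quartiles and median of all 19408 genes, and the chloroplast genome class at −0.51 lies furthest below them.

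The LEA, protein phosphatase 2C and heat shock classes had medians within 0.1 of 0 in treated *aph-1*. Of 49 measured LEA, dehydrin and cold-regulated genes, whose products protect cells during drying, none was past 1.5-fold in either direction, where the shares over all genes were 1.30% higher and 1.16% lower. Their median was −0.06 and 32 were below 0, as were 10284 of all 19408 genes. Without ABA the median of the same genes was −0.52, against −0.05 over all genes, and 21 were 1.5-fold lower, against 3.56% of all genes. The dehydrin gene *RAB18* was at 7336 FPKM in the treated wild type and 5766 FPKM in treated *aph-1*, and at 56.6 and 5.67 FPKM without ABA. *COR15A*, which protects chloroplast membranes, was at 6426 and 5980 FPKM with ABA and at 105 and 10.9 FPKM without. These genes were thus 9.98 and 9.65-fold lower in *aph-1* without ABA, and with ABA their log2 ratios were −0.35 and −0.10. *LEA7* and *KIN1* both had a log2 ratio of −0.24 with ABA, against −4.10 and −3.37 without. *COR15B* was the member furthest on the higher side, at 983 and 1347 FPKM with ABA. Protein phosphatases 2C, a class that holds the clade A negative regulators of ABA signalling among other members, had 1 of 58 members 1.5-fold lower, AT4G32950 at 2.15 and 1.15 FPKM, and none 1.5-fold higher. Their median was −0.09 and 41 were below 0, beside the same 10284 of all 19408 genes. This median covers the whole class and not the clade A genes alone. *HAI2* was at 147 and 115 FPKM, and its log2 ratio of −0.35 lay under the lower quartile of the class, −0.16. Heat shock proteins had a median of 0.03 over 61 genes and 1 member 1.5-fold lower, the plastid small heat shock gene *HSP21* at 8.61 and 5.02 FPKM.

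Of the 47 classes 27 had no member past 2-fold in either direction, and 35 had a median within 0.1 of 0. The shares past 2-fold over all genes were 0.438% higher and 0.304% lower. With shares this low a small class will often have no such member, so its absence alone does not set a class apart. Leucine-rich repeat receptor kinases (117 genes), UDP-glycosyltransferases (112 genes) and disease resistance proteins of the NBS-LRR type (83 genes) had no member past 1.5-fold. WRKY and MYB factors, with 51 and 90 genes, had 2 members each past 1.5-fold. Over all measured genes 1.30% were 1.5-fold higher and 1.16% were 1.5-fold lower. Whether the counts of these classes differ from those shares was not tested. Splicing factors and SR proteins, which join exons, appeared to have 3 of 55 measured members 2-fold higher. The description pattern also took in CLE signalling peptides, a family with 22 measured genes, and the 3 were *CLE1*, *CLE5* and *CLE14*. With the pattern narrowed to leave out the CLE peptides, 30 splicing genes remained. None of these was past 1.5-fold and their median was −0.05. The patterns for pentatricopeptide and RING proteins also took in unrelated genes. When restricted by name 1 of 196 and 5 of 331 genes were past 1.5-fold, beside the same 1.30% and 1.16%. These corrections were made after the values were seen.

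Small secreted and hormone-related classes varied among their own members. Defensins and defensin-like proteins, small antimicrobial peptides, had a median of 0.32 over 16 genes. Of these, 2 were 2-fold higher and 1 was 2-fold lower, against 0.438% and 0.304% of all measured genes. With a minimum of 5 FPKM the class median was −0.11, so its direction rests on the genes of low abundance. The higher ones, AT1G64195, which was listed at 0 in the treated wild type, and AT3G24510, reached only 2.24 and 1.14 FPKM in treated *aph-1*, while the lower one, AT1G34047, was at 14.8 FPKM in the treated wild type and 6.13 FPKM in treated *aph-1*, and at 20.3 and 10.6 FPKM without ABA. The abundant *PDF1.2*, a marker of jasmonate and ethylene defence that has near-identical copies, was at 83.2 and 66.6 FPKM. SAUR genes, rapidly induced by auxin, had a median of −0.14 over 41 genes. At 1.5-fold 4 members were higher and 4 lower, against 1.30% and 1.16% of all measured genes. The SAUR genes 2-fold lower were AT4G34810, at 1.32 and 0.376 FPKM, and *SAUR15*, at 1.06 and 0.458 FPKM. The gibberellin class had a median of −0.22 over 12 genes with none past 1.5-fold, and its lower members included *GA2OX2*, which inactivates gibberellin, at 11.5 and 7.89 FPKM.

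Several of the largest ratios fell on genes that code for no protein or have no description. Of the 85 higher genes 23 (27.1%) and of the 59 lower genes 22 (37.3%) had no description, against 12.7% of all measured genes. AT3G14340, without a description, was at 1.81 FPKM in the treated wild type and 14.9 FPKM in treated *aph-1*, and at 11.6 and 9.03 FPKM without ABA. The noncoding gene AT1G15405 was at 2.97 and 10.5 FPKM with ABA. On the lower side AT1G53542 was at 15.8 and 5.03 FPKM, AT1G21529 at 16.2 and 8.03 FPKM and the noncoding gene AT4G04223 at 14.3 and 6.69 FPKM. All 3 were also lower in *aph-1* without ABA. Noncoding genes as a class had 3 of 162 members 2-fold higher and 6 lower, against 0.438% and 0.304% of all measured genes, and a median of −0.12. Transposable element genes had 1 of 75 members 2-fold lower, beside the same 0.304%, and this gene was listed at 0 in treated *aph-1*. The microRNA gene *MIR834* was at 10.1 and 3.68 FPKM with ABA and at 7.23 and 7.52 FPKM without. AT5G45428, a conserved peptide encoded by an upstream open reading frame, was at 24.9 and 10.4 FPKM, and since such a frame lies on the transcript of another gene its reads cannot be told apart from that gene's. The chloroplast gene ATCG00640 was at 13.1 and 6.59 FPKM, just under 2-fold.

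The genes listed at 0 in 1 treated group were often at 0 elsewhere too. Of the 20 among the higher genes 9 were at 0 in both untreated groups, as were 9 of the 14 among the lower genes. The small nuclear RNA gene *U1.5* was listed at 0 in the treated wild type and at 56.0 FPKM in treated *aph-1*, though at 181 and 57.0 FPKM in the untreated groups. AT5G04790 was at 0 and 17.9 FPKM with ABA and at 85.7 and 18.3 FPKM without. In both genes the untreated and treated mutant were close to each other, and the wild-type groups were the highest and the lowest. AT3G28899, AT1G62886, AT3G45180, AT5G50361, AT3G48660, AT4G40011 and *CLE1* were at 0 in the treated wild type and between 1.89 and 3.42 FPKM in treated *aph-1*. In the other direction, the ribosomal RNA gene AT3G41979 was at 27.3 FPKM and *MIR472* at 15.0 FPKM in the treated wild type, and both were at 0 in treated *aph-1* and in both untreated groups. AT1G44941, AT5G65609, AT2G36854, AT3G16712, *IDL4*, AT3G27895 and AT4G35655 were between 1.92 and 5.71 FPKM in the treated wild type and at 0 in treated *aph-1*. AT2G22820 was at 1.92 and 0.00715 FPKM.

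The untreated groups share no library with the treated ones, so they show how the same genes differed between the genotypes without ABA. Over the 19408 genes, 250 were 1.5-fold higher (1.29%) and 691 were 1.5-fold lower (3.56%) in untreated *aph-1*. Of the 61 genes 2-fold higher with ABA and above 0 in all 4 groups, 32 were also above 0 without ABA, 29 were below, 11 were 1.5-fold higher and 9 were 1.5-fold lower, with a median of 0.02. Of the 37 genes 2-fold lower with ABA and above 0 in all 4 groups, 28 were also below 0 without ABA, 18 were 1.5-fold lower and 1 was 1.5-fold higher, with a median of −0.51. Among all 19314 measured genes above 0 in all 4 groups 43.4% were above 0 and 56.6% below 0 without ABA. The genes 2-fold higher thus divided about evenly without ABA, and those 2-fold lower lay mostly on the lower side. Across these 19314 genes the ratios with and without ABA had a Pearson correlation of 0.27 and a Spearman correlation of 0.25. This is a description, since genes are not independent replicates and both ratios share the same pair of genotypes.

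**Figure D5:**
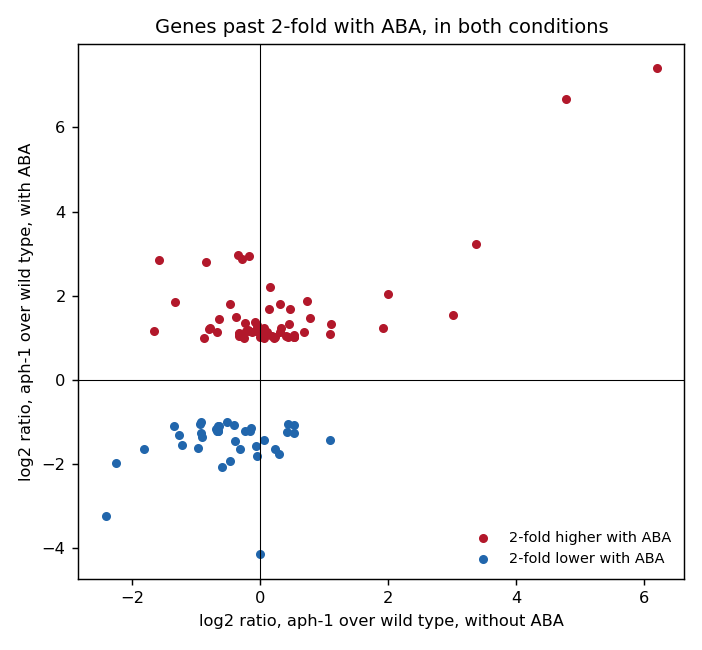
Log2 ratio, mutant over wild type, without ABA (horizontal axis) and with ABA (vertical axis) for genes past 2-fold with ABA and above 0 in all 4 groups, with 61 higher genes in red and 37 lower genes in blue. The empty band between the colours is the 2-fold threshold itself. On the horizontal axis 29 red points lie below 0 and 28 blue points lie below 0.

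The genes past 2-fold lay on all 5 nuclear chromosomes. Chromosome 3, which carries *APH*, held 21 of the 85 higher genes (24.7%) and 12 of the 59 lower genes (20.3%), against 19.7% of the measured genes. The chloroplast genome held 6 of the 59 lower genes (10.2%) against 0.309% of the measured genes. Among measured genes in order of identifier, 4 pairs of next neighbours were both 2-fold higher, namely *GSTU12* and *GSTU11*, *bHLH38* and *bHLH39*, AT4G12490 and AT4G12500, and AT5G47980 and *CYP705A5*. The single pair on the lower side was AT1G21528 and AT1G21529. In the higher pairs *GSTU12* and AT5G47980 reached 1 FPKM only in treated *aph-1*, the group where they were higher. Whether neighbours were past 2-fold together more often than other genes was not tested.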

How the data were processed

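RNA-seq was done on whole seedlings of wild type and *aph-1* with and without ABA. The study's methods describe reads mapped to TAIR10 with HISAT and counted with HTSeq. The values used are the FPKM that the authors deposited, 1 per gene and group of 3 libraries. That unit was inferred from a Cuffdiff label on the table, its column sums and its low values, and the sources used here give neither the depth per library nor how libraries were combined. The 8 columns of the authors' own comparisons (log2 ratios and yes or no calls) were not used. Ratios used a pseudocount of 0.1 FPKM and genes with at least 1 FPKM in either ABA group, and a gene counted at 2-fold or 1.5-fold. Functions were checked on simulated data.

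Classes were defined by words in the table's descriptions. The members, classes and lists were chosen with earlier results of these data known. Named genes were the 12 largest ratios each way at 10 FPKM or more, the next 8 each way at 1 FPKM, up to 3 per class, *APH* and 5 ABA marker genes, and any other gene was chosen after its values were seen. Of the 3-per-class genes only some are described. Symbols came from RefSeq for TAIR10.1, where 32815 of 33559 identifiers matched. Promoter sequences were not analysed here. Tables were made with pandas 2.3.3 and numpy 2.4.6 under Python 3.11.15, correlations with scipy 1.17.1 and plots with matplotlib 3.10.9.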

Additional observations from a re-analysis of the deposited data

How the results depend on the processing

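No paired analysis was possible because the table holds a single value per gene and group, and for the same reason no library could be left out. The number of genes 2-fold higher, 85, and 2-fold lower, 59, depended on low values. A pseudocount of 1 gave 43 and 33, a minimum of 5 FPKM gave 24 and 19, a minimum of 1 FPKM in both groups gave 37 and 19, and no minimum gave 228 and 224. A 1.5-fold threshold gave 253 and 225, and a 3-fold threshold gave 38 and 31. A pseudocount of 0.01, centring on the median and leaving out transposable element and organelle genes moved neither count by over 1.5 times, nor did leaving out genes listed at 0 (65 and 45), which was chosen after seeing the data. Of 47 class medians, that of the defensins turned from 0.32 to −0.11 with a minimum of 5 FPKM. In 8 further cases a class median moved by 0.1 or more, 7 of them with no minimum, where genes under 1 FPKM in both groups entered and the chloroplast genome median became 0. Search of promoters for motifs was not run. With depth unknown, differences between genes of a few FPKM cannot be told from counting error.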

Other observations

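Glycine-rich proteins, a class added after the values were seen and including cell wall proteins, had 35 of 44 measured members below 0 in ABA-treated *aph-1*. Over all 19408 measured genes 10284 were below 0. Of the 44 genes 7 were 1.5-fold lower and none was 1.5-fold higher, against 1.16% and 1.30% of all measured genes. The class median was −0.20 with ABA and −0.19 without, against −0.01 with ABA and −0.05 without over all genes. AT2G05510 was at 2319 FPKM in the treated wild type and 1317 FPKM in treated *aph-1*, and at 1535 and 829 FPKM without ABA. *GRP9* was at 1987 and 1250 FPKM with ABA and at 2252 and 1465 FPKM without. These 2 abundant genes were thus lower in *aph-1* in both conditions. *GRP5* was at 60.3 and 39.5 FPKM with ABA, against 55.6 and 54.7 FPKM in the untreated groups.

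Nitrate assimilation, in a list of 6 genes also chosen after their values were seen, had 5 genes above 0 with ABA. Of these, 3 were 1.5-fold higher, against 1.30% of all measured genes. The nitrate reductase genes *NIA1* and *NIA2*, the first step of assimilation, were at 12.6 and 20.2 FPKM and at 64.1 and 106 FPKM in the treated wild type and treated *aph-1*. *BT2*, a nitrate-responsive BTB protein, was at 17.7 and 32.0 FPKM. The nitrate transporter gene *NRT2.1* (AT1G08090) was at 1.99 and 1.69 FPKM. Without ABA none of the 6 was past 1.5-fold.

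Genes of senescence and cell death, singled out after their values were seen, did not share a direction. *BFN1*, a nuclease, was at 73.0 FPKM in the treated wild type and 43.7 FPKM in treated *aph-1*, and *CEP1*, a cysteine protease, at 25.5 and 15.4 FPKM. *SAG13* was at 59.8 and 99.2 FPKM with ABA, and at 4.63 and 0.931 FPKM without.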
